A study of Mus musculus with 9 samples.

Results

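The 7 genes Gdf15, Serpine2, Igfbp3, Igfbp7, Timp1, Il6 and Cdkn2a were examined here as factors of the senescence and stress secretory response in the mouse kidney. They were taken by name from the 9 count matrices, as 7 of the 32427 genes listed there, and each had at least 1 UMI (unique molecular identifier, which marks 1 captured RNA molecule) in all 9 mice. Kidneys came from male C57BL/6 mice, 6 weeks old at arrival, in 3 groups of 3 mice. Control mice received saline. AKI-CKD mice, which model chronic disease (CKD) that follows an acute injury of the kidney (AKI), received 4 weekly intraperitoneal injections of cisplatin at 8 mg/kg. AKI-CKD + EGT mice received the same cisplatin and ergothioneine (EGT), a dietary antioxidant amino acid, at 0.5 mg/mL in the drinking water. All kidneys were taken at week 8 and 1 droplet single-cell library was made per mouse, so that n = 3 per group throughout.

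Senescent cells stop dividing, usually through the kinase inhibitors encoded by Cdkn1a or Cdkn2a, and release a mixture of cytokines, growth factors, protease inhibitors and binding proteins for insulin-like growth factors. Tubular cells that survive a toxic or ischaemic injury can enter such a state, and the released factors act on neighbouring epithelium, endothelium, fibroblasts and leukocytes. Gdf15 encodes a stress cytokine of the TGF-beta family, Serpine2 encodes protease nexin-1, which inhibits thrombin, urokinase and plasmin, and Timp1 encodes an inhibitor of matrix metalloproteinases. Igfbp3 encodes the main circulating carrier of insulin-like growth factors, Igfbp7 encodes a secreted matrix-associated protein used as a urinary marker of tubular stress, and Il6 encodes the cytokine interleukin-6.

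The 9 libraries held 70106161 to 101525691 UMIs, and 196925 of 216680 barcodes were kept as cells (17196 to 27463 per mouse). Clusters were named from marker genes as 14 types, which held 93.0% of the kept cells, and each type name used here means cells like that type: PT (proximal tubule), DCT (distal convoluted tubule), LOH (loop of Henle), CD-PC and CD-IC (collecting duct, principal and intercalated), thin limb, podocyte, endothelial, stromal, macrophage, mixed myeloid, T/NK, B and cycling cells. PT made up 75.1% of kept cells. The marker lists held none for the connecting tubule. A DCT cluster of 4814 cells, of 12418 DCT cells in all, was led by Klk1, S100g and Calb1, so DCT may include connecting tubule cells. The share of barcodes removed for mitochondrial reads ran from 0.909% in Control mouse 3 to 27.7% in AKI-CKD + EGT mouse 3, which also had the highest summed level of nuclear-retained RNA. Slc34a1, the phosphate transporter of the proximal tubule, stood at 4308 CPM (UMIs of the gene per 1000000 UMIs of that population) in PT cells. Every other type held 35.0% to 72.2% of that level, the most in cycling cells. Free RNA, doublets and expression by the cells themselves were not told apart as sources of that RNA. Doublets were not removed for the values given below, and cell names shared between libraries are running numbers that do not identify cells.

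The promoter windows of Serpine2, the 1 gene of the 7 called by edgeR with its filter on low counts, and of Gdf15, which like it was higher in PT cells with a Cdkn1a UMI, are shown for reference (RefSeq, build GRCm38.p6, which is not the build GRCm39 used for the counts; 250 bases before to 50 bases after the annotated start, 5′ to 3′ on the gene's strand, matches to the GC box GGGCGG on either strand in capitals). The Serpine2 window lies at chr1:79858616-79858915 on the minus strand, and the Gdf15 window at chr8:70632407-70632706 on the minus strand, the upstream one of 2 annotated for that gene.
Serpine2: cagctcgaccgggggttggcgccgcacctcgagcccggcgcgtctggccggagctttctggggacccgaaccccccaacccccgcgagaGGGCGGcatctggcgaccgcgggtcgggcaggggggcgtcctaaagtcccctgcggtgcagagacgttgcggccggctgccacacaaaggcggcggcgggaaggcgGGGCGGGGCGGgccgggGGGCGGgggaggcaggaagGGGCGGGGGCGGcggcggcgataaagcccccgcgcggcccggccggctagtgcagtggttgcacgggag
Gdf15: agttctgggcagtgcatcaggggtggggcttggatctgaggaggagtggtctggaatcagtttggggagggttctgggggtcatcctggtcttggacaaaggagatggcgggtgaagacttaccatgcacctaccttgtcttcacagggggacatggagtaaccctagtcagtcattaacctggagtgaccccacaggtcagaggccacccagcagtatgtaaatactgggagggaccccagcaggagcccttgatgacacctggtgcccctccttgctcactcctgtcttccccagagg
The Serpine2 window held 6 GC-box matches, of which the matches starting 55 and 50 bases before the start share letters, and 77.7% of its bases were G or C. The Gdf15 window shown held no GC-box match, with 57.0% G or C; the other, at chr8:70632046-70632345, is not shown and had 56.0%. Across all 32851 windows of this length, 35.7% held a GC-box match and the median share of G or C was 52.7%. At least 1 window was found for all 7 genes. A match to the AP-1 motif TGANTCA, also searched on both strands and found in 7.81% of all windows, was present in 1 of the 9 windows of the 7 genes, that of Il6.

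The level of each gene was summed per mouse in all kept cells and in the 13 types with at least 20 cells in every mouse, which left out podocytes, and each comparison was tested with edgeR on the summed UMI counts with Benjamini-Hochberg adjustment over all genes. The filter on low counts left 36 gene-by-population values per comparison. Between AKI-CKD and Control, 28 of the 36 log2 fold changes were above 0, 11 came with p under 0.05 before adjustment and 1 was called at an adjusted p under 0.05, namely Serpine2 in PT. Between AKI-CKD + EGT and AKI-CKD, named the EGT comparison from here on, 11 of the 36 were above 0, 7 came with p under 0.05 before adjustment and none was called by edgeR, whereas DESeq2 called 1, Serpine2 in PT, where it called 2.38% of all genes. With no filter on low counts edgeR called 6 values in each comparison, in fits that called 0.634% and 1.01% of all gene tests in the 14 populations. Elsewhere in the text a call is one of edgeR with the filter unless another fit is named. The 6 values called with no filter against Control were Serpine2 in all kept cells, PT and thin limb cells and Gdf15 in B, cycling and DCT cells. In the EGT comparison the 6 were Serpine2 in PT and thin limb cells, Gdf15 in B, DCT and thin limb cells and Timp1 in stromal cells. Of all genes, 8.02% in all kept cells and 11% in PT had an unadjusted p under 0.05 in the former comparison, and 12.7% and 14.9% in the latter. Over the 14 populations this share ran from 5.62% in mixed myeloid to 25% in thin limb cells in the former comparison. In the latter it ran from 5.21% in cycling to 22.4% in thin limb cells. The share of all genes above 0 is not given here. The 36 values are of 6 genes in populations that share the same mice, and all kept cells contain the others. The counts are thus not of separate results. Against Control, Gdf15 and Igfbp7 gave 10 and 12 of the 28 values above 0, and Gdf15 gave 6 of the 11 with p under 0.05. Both comparisons use the same 3 AKI-CKD mice, so a value high in those mice raises the first fold change and lowers the second. In PT cells, where edgeR called 8 of 17862 genes tested (0.0448%) in the former comparison and 0% in the latter, the median log2 fold change of the 4 members tested was 0.77 and -0.53, beside -0.01 and -0.01 over all genes. In all kept cells, where 0.0199% and 0.00496% of genes were called, the medians of the 6 genes tested were 0.72 and -0.53, beside 0.00 and -0.01. Timp1 (1.90 and -1.48) is among these 6 genes and among the 36 values above. It passed the filter mainly through the AKI-CKD mice, where it was high. Its part in these medians and counts is thus no support. A level summed over all kept cells cannot tell apart fewer cells of a type and less RNA per cell.

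**Figure D1:**
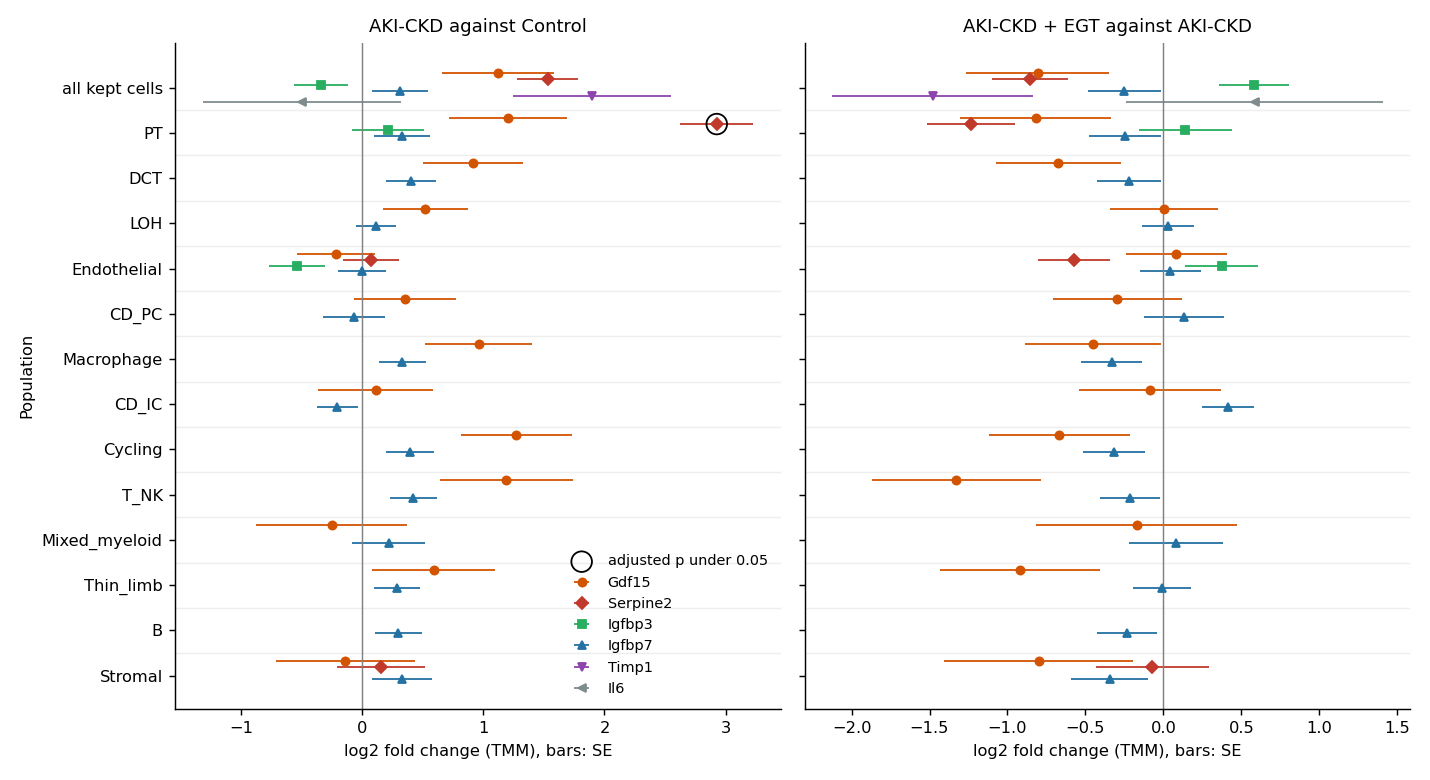
Log2 fold change (x axis, TMM-scaled edgeR estimate, bars show the standard error) of each gene that passed the filter in each population (y axis), for AKI-CKD against Control (left) and AKI-CKD + EGT against AKI-CKD (right). The ringed point is the 1 value with an adjusted p under 0.05, Serpine2 in PT at 2.93.

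Serpine2, the inhibitor of thrombin and urokinase, had the largest difference of the 4 genes tested in PT cells, at low counts. In PT cells it stood at 0.529, 0.475 and 0.554 CPM in the 3 Control mice, 2.45, 3.88 and 4.78 CPM in the AKI-CKD mice and 2.05, 1.36 and 2.14 CPM in the AKI-CKD + EGT mice. These levels rested on 34, 38 and 42 UMIs, 187, 208 and 388 UMIs, and 111, 79 and 88 UMIs. The Control mice were tightly grouped, all 3 AKI-CKD mice lay above all Control mice, and all 3 AKI-CKD + EGT mice lay between the other 2 groups without overlap. In AKI-CKD the log2 fold change against Control was 2.93 (SE 0.30, edgeR adjusted p = 0.0106). In the EGT comparison it was -1.23 (SE 0.28), with an unadjusted p of 0.00111 in edgeR and an adjusted p of 0.222. This difference was thus not called by edgeR as fitted, but was called by DESeq2 (adjusted p = 0.00790) and by edgeR with no filter on low counts (adjusted p = 0.0296), fits that called 2.38% and 0.808% of genes, against 0% in the former. Of all genes tested in PT, 6.89% had all AKI-CKD mice above all Control mice, and 2.74% had all AKI-CKD + EGT mice below all AKI-CKD mice. The call in AKI-CKD was lost when Control mouse 2 or Control mouse 3 was left out, with a log2 fold change of 2.91 (edgeR adjusted p = 0.115) and 2.99 (edgeR adjusted p = 0.0613). It was also lost with the replicate number as a block (2.90, edgeR adjusted p = 0.0683) and with only the 6 mice compared (2.91, edgeR adjusted p = 0.0573).

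**Figure D2:**
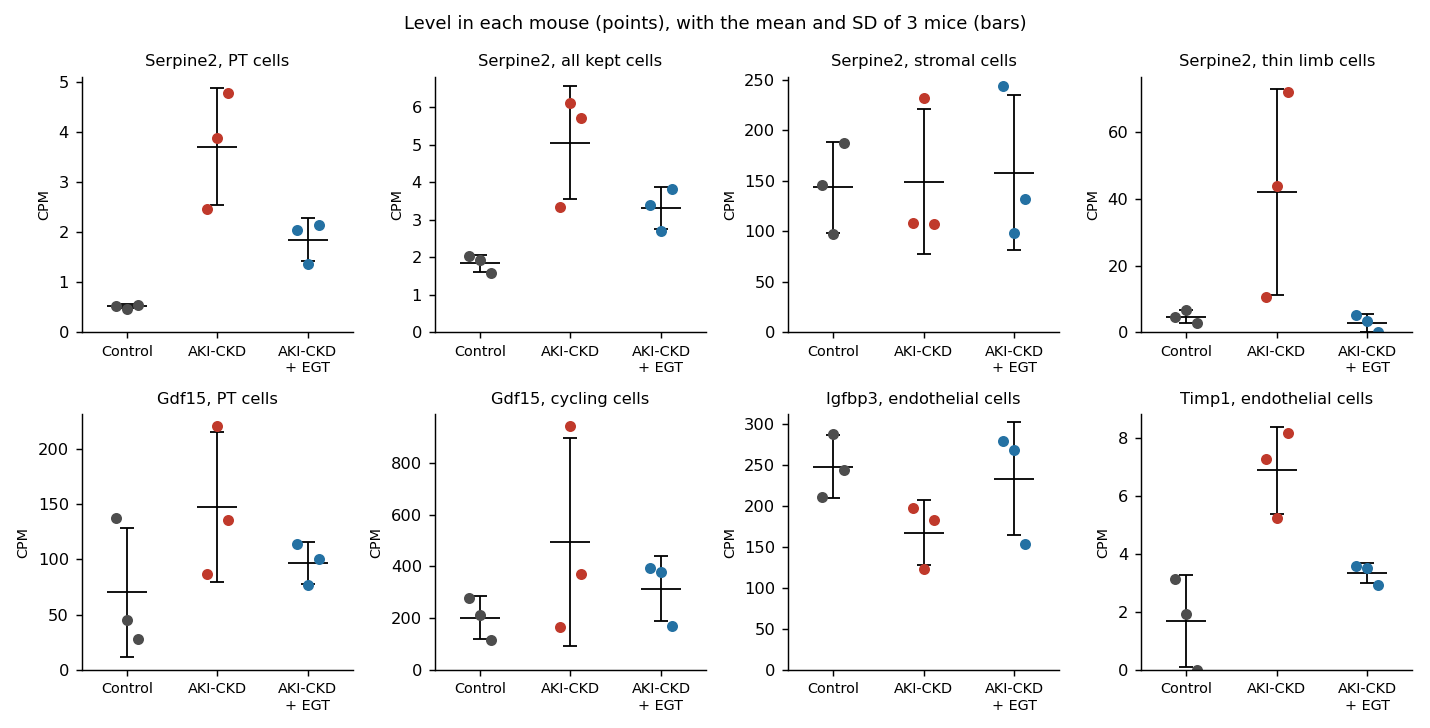
CPM (y axis) of Serpine2, Gdf15, Igfbp3 and Timp1 in each mouse (points, 3 per group) with the group mean and SD (black bars), in 8 gene and population pairs. In PT cells the Control mice sit at 0.475 to 0.554 CPM of Serpine2 and the AKI-CKD mice at 2.45 to 4.78 CPM, while in stromal cells the 3 groups overlap.

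In the cells of each group, with the mice pooled, Serpine2 was at a higher CPM in AKI-CKD than in Control in 12 of 12 PT clusters, as were Gdf15, Igfbp7 and 4.89% of the 16884 genes with at least 100 UMIs in PT cells. AKI-CKD + EGT lay between both for Serpine2 in 12 of 12 clusters, as it did for 0.237% of these genes. The 12 clusters share the same mice and are not replicates. Cluster levels ran from 0 to 1.19 CPM in Control, from 2.54 to 4.65 CPM in AKI-CKD and from 0.929 to 2.98 CPM in AKI-CKD + EGT. In 8 other types pooled (DCT, LOH, CD-PC, CD-IC, macrophage, mixed myeloid, T/NK and B cells) the means were 0.459, 2.30 and 1.48 CPM on 14, 50 and 53 UMIs, and the AKI-CKD and AKI-CKD + EGT mice overlapped. Taken alone, only DCT, LOH and macrophages, 3 of the 8, had their means in that order. PT cells stood above these 8 types in 8 of 9 mice, the exception being Control mouse 1. In the AKI-CKD mice 0.913%, 1.21% and 1.74% of PT cells held a Serpine2 UMI, against 0.706%, 0.399% and 0.896% of the cells of the 8 types, which were shallower (medians of 2346 to 2699 UMIs, against 2728 to 3150 in PT). Of the T/NK cells alone, 8 held a UMI, or 0.844%, against 0.692% of all PT cells. How much of the PT level came from free RNA was not tested. Igfbp3, which is concentrated in endothelial cells, stood in PT at 0.646 ± 0.174 CPM in Control, 0.710 ± 0.163 CPM in AKI-CKD and 0.900 ± 0.0126 CPM in AKI-CKD + EGT. In endothelial cells Igfbp3 was itself lower in AKI-CKD (log2 fold change -0.54, not called by edgeR), and Serpine2 was highest in stromal cells. The Igfbp3 values thus cannot show the part of free RNA in the PT level of Serpine2. The sums of the marker lists for tissue handling and for nuclear-retained RNA are set beside the Serpine2 values. Nuclear-retained RNAs (Malat1, Neat1, Meg3, Kcnq1ot1) summed in PT to 8121 to 9864 CPM in Control, 2963 to 9668 CPM in AKI-CKD and 6908 to 15365 CPM in AKI-CKD + EGT. Of this list, 3 of 4 genes were tested in PT; 0 of 3 were above 0 in AKI-CKD against Control, 3 of 3 were above 0 in the EGT comparison, and none was called by edgeR. Of 12 genes of the dissociation response (such as Fos and Hspa1a), 10 were above 0 in AKI-CKD and none was called, with summed levels of 1128 to 2779 CPM in Control, 1691 to 3137 CPM in AKI-CKD and 1513 to 3183 CPM in AKI-CKD + EGT. Their part in the Serpine2 values was not tested.

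**Figure D3:**
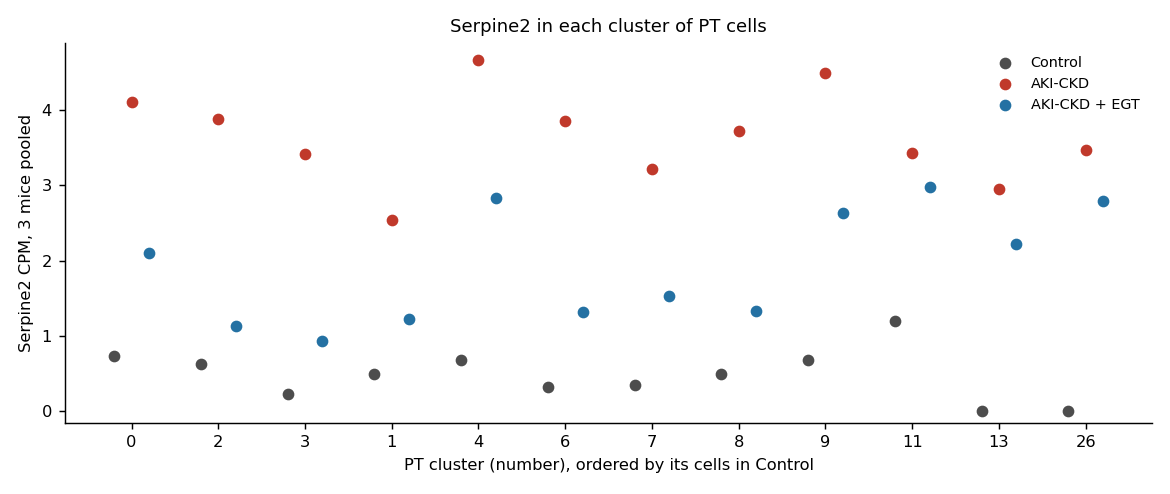
Serpine2 CPM (y axis) in each of the 12 PT clusters (x axis, cluster number, ordered by Control cells), with the 3 mice of a group pooled into 1 point. In each cluster the AKI-CKD point is the highest and the Control point the lowest.

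Serpine2 was at its highest level in the stroma. It stood at 150 ± 57.3 CPM in stromal cells, 47.8 CPM in endothelial cells (25.3 to 63.0 CPM) and 16.5 ± 24.6 CPM in thin limb cells (SD, n = 9 mice), against 2.02 ± 1.52 CPM in PT cells. Because PT cells are so many, they still held 48.3% of its 2432 UMIs. In stromal cells the levels were 146, 97.7 and 187 CPM in Control, 108, 232 and 108 in AKI-CKD and 244, 98.6 and 132 in AKI-CKD + EGT. The 3 groups overlapped, with a log2 fold change of 0.16 (SE 0.37, edgeR adjusted p = 0.928) in AKI-CKD and -0.07 (SE 0.36, edgeR adjusted p = 0.966) in the EGT comparison. In endothelial cells the log2 fold change was 0.07 (SE 0.23, edgeR adjusted p = 0.946) and -0.57 (SE 0.23, edgeR adjusted p = 0.456, unadjusted p = 0.0268). Whether PT and stromal cells differ in their response was not tested. In all kept cells the levels were 2.03, 1.92 and 1.57 CPM in Control, 3.34, 6.11 and 5.71 in AKI-CKD and 3.39, 2.71 and 3.81 in AKI-CKD + EGT. The AKI-CKD mice lay above all Control mice here, and AKI-CKD mouse 1 lay within the range of the AKI-CKD + EGT mice. The log2 fold changes were 1.53 (SE 0.25, edgeR adjusted p = 0.167) and -0.85 (SE 0.24, edgeR adjusted p = 0.318). The former was called by DESeq2 (1.53, adjusted p = 1.64e-05) and by edgeR with no filter (1.52, adjusted p = 0.0195), fits that called 0.536% and 0.09% of genes there. Of all genes tested in all kept cells, 6.15% had the AKI-CKD mice above all Control mice.

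In thin limb cells Serpine2 stood at 4.58, 6.74 and 2.88 CPM in Control, 10.5, 43.8 and 71.9 in AKI-CKD and 5.08, 3.30 and 0 in AKI-CKD + EGT, on 6, 43 and 3 UMIs in all. All 3 AKI-CKD mice lay above all mice of the other groups, with 10.6% of AKI-CKD thin limb cells holding a UMI against 1.14% in Control and 1.09% in AKI-CKD + EGT. The name of these cells depended on the clustering, since without Harmony no cluster was named thin limb. The counts did not pass the filter with all 9 mice, so that edgeR with the filter gave them no test. With 1 mouse left out they passed in 7 of 9 fits, and 5 of the 7 gave a call in each comparison, with log2 fold changes of 2.97 to 3.70 (edgeR adjusted p up to 0.0679) and -4.37 to -3.59 (edgeR adjusted p up to 0.0904), in fits that called 3.49% and 3.53% of gene tests. They did not pass without AKI-CKD mouse 2 or 3. The calls of both comparisons thus came through the group where the counts were high, and these are no support. With no filter the values were 3.26 (SE 0.62) and -4.05 (SE 0.70), both called by edgeR, and all these values rest on the same few UMIs. AKI-CKD mice 2 and 3 held 12 and 29 of the UMIs, of which 6 and 5 came from 1 cell in each mouse. Of the genes tested in thin limb cells, 9.99% had all AKI-CKD mice above all Control mice and 9.62% had all AKI-CKD + EGT mice below all AKI-CKD mice. The thin limb population had many calls of any kind (5.97% and 5.19% of 4956 genes tested), among them Malat1 at -1.99 (SE 0.24) in AKI-CKD and 2.33 (SE 0.25) in the EGT comparison; the part of this nuclear-retained RNA in the Serpine2 values was not tested.

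Gdf15, the stress cytokine, was widely detected, and its levels overlapped between the groups in each population tested. PT cells held 83.7% of its 70114 UMIs. By level, it was highest in thin limb cells (406 ± 217 CPM), cycling cells (336 ± 250 CPM) and CD-PC (215 ± 91.2 CPM), followed by PT cells (105 ± 57.1 CPM; SD, n = 9 mice), and each neighbouring pair in the order of all 14 types overlapped within the SD. Set against Slc34a1, Gdf15 was at 208 UMIs per 1000 Slc34a1 UMIs in thin limb cells, 131 in CD-PC and 108 in cycling cells. PT cells had 24.3 per 1000, and macrophage, mixed myeloid, T/NK, B, endothelial, CD-IC and LOH cells had 18.3 to 23.4 per 1000, at or below the ratio of the PT cells, so that Gdf15 of these 7 types and free RNA cannot be told apart by this ratio. In PT cells Gdf15 stood at 137, 45.2 and 28.2 CPM in Control, 86.6, 221 and 135 in AKI-CKD and 114, 76.5 and 100 in AKI-CKD + EGT. Control mouse 1, which lost 17.0% of its barcodes to the mitochondrial limit, lay among the AKI-CKD mice, and the groups overlapped. The log2 fold change was 1.20 (SE 0.49, edgeR adjusted p = 0.426, unadjusted p = 0.0313) in AKI-CKD and -0.82 (SE 0.48, edgeR adjusted p = 0.445) in the EGT comparison. Without Control mouse 1 the former was 2.04, still not called (edgeR adjusted p = 0.135). That fit left out the highest Control mouse (137 CPM) and kept AKI-CKD mouse 2, the highest of all mice (221 CPM).

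Gdf15 values in other populations varied in size and sign. In cycling cells the levels were 277, 213 and 114 CPM in Control, 167, 945 and 372 in AKI-CKD and 394, 378 and 168 in AKI-CKD + EGT, and the log2 fold changes were 1.27 (SE 0.46, edgeR adjusted p = 0.657) and -0.67 (SE 0.45, edgeR adjusted p = 0.917), the latter turning to 0.15 without AKI-CKD mouse 2. In DCT cells they were 0.92 (SE 0.41, edgeR adjusted p = 0.524) and -0.67 (SE 0.40, edgeR adjusted p = 0.502), and in thin limb cells 0.59 (SE 0.51, edgeR adjusted p = 0.490) and -0.92 (SE 0.51, edgeR adjusted p = 0.312). AKI-CKD mouse 2 was the highest mouse in all 3 populations, and the groups overlapped in each. The values were 0.35 (SE 0.42) and -0.29 (SE 0.42) in CD-PC and 0.11 (SE 0.48) and -0.08 (SE 0.45) in CD-IC, and in LOH cells 0.52 (SE 0.35) stood beside 0.00 (SE 0.35), none of them called by edgeR. Endothelial cells gave -0.22 (SE 0.33) and 0.08 (SE 0.32). In all kept cells Gdf15 stood at 127, 49.5 and 27.1 CPM in Control, 81.3, 202 and 132 in AKI-CKD and 107, 77.5 and 90.4 in AKI-CKD + EGT, with log2 fold changes of 1.12 (SE 0.46, edgeR adjusted p = 0.604) and -0.81 (SE 0.46, edgeR adjusted p = 0.468). Over the 13 populations tested for this gene, 10 fold changes were above 0 in AKI-CKD, 11 were below 0 in the EGT comparison, and none was called by edgeR with the filter on low counts; 6 and 1 came with p under 0.05 before adjustment. The 6 were those in all kept cells, PT, cycling, DCT, macrophage and T/NK cells, and the 1 was that in T/NK cells. These populations share the same mice and all kept cells contain the others, so the counts are not of separate results. Gdf15 of macrophage, mixed myeloid, T/NK, endothelial, CD-IC and LOH cells could not be told apart from free RNA by the ratio to Slc34a1. Of all genes, 6.64% in cycling, 9.48% in DCT, 6.3% in macrophage and 11.7% in T/NK cells had such a p against Control, and 11.7% in T/NK cells in the EGT comparison. With no filter edgeR called Gdf15 in cycling cells (1.29, SE 0.21) and DCT cells (0.92, SE 0.19) against Control and in DCT cells (-0.69, SE 0.19) and thin limb cells (-0.96, SE 0.25) in the EGT comparison, where the fold changes were close to those above and the SEs smaller. It also called Gdf15 in B cells, which did not pass the filter (2.75, SE 0.51, and -1.87, SE 0.41). DESeq2 called none of them. In none of these populations did the mice of the compared groups separate.

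**Figure D4:**
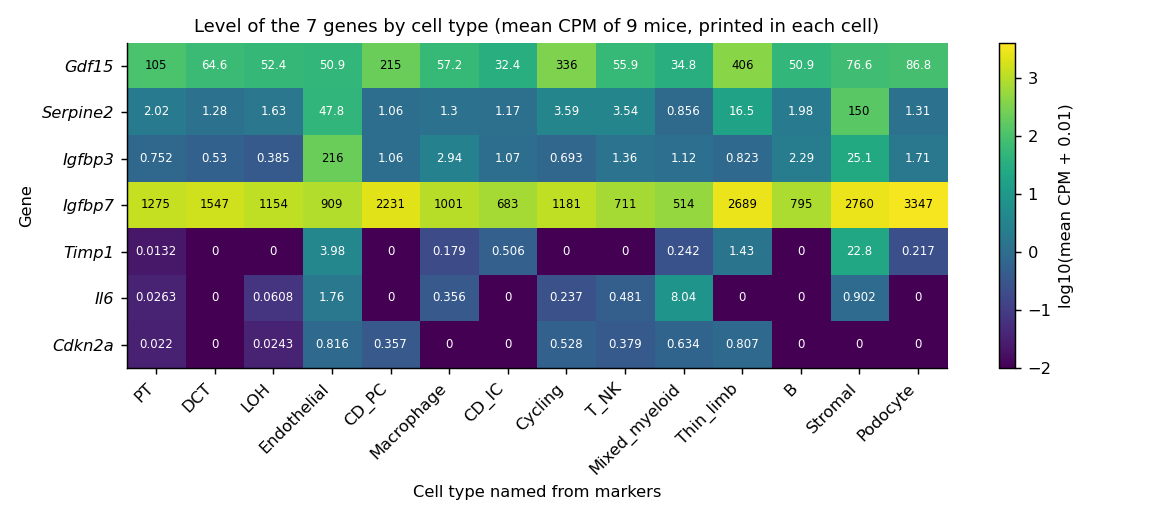
Mean CPM of 9 mice (colour on a log10 scale, value printed) for each of the 7 genes (rows) in each of the 14 named types (columns). Igfbp3 is concentrated in endothelial cells at 216 CPM. The highest mean of Serpine2 is in stromal cells at 150 CPM and that of Gdf15 in thin limb cells at 406 CPM, while Igfbp7 is at 514 CPM or more in every type.

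Igfbp7 was found in 88.7% of kept cells. Its level was highest in podocytes (3347 ± 1491 CPM), stromal cells (2760 ± 583 CPM), thin limb cells (2689 ± 405 CPM) and CD-PC (2231 ± 599 CPM), all overlapping, and stood at 1275 ± 213 CPM in PT cells (SD, n = 9 mice). Per 1000 Slc34a1 UMIs it was at 1360 to 1392 in CD-PC, thin limb and stromal cells, at 722 in DCT cells and at 296 in PT cells. B, T/NK and mixed myeloid cells had 286 to 297 per 1000, close to the ratio of the PT cells, so that Igfbp7 of these cells and free RNA cannot be told apart by this ratio. In PT cells Igfbp7 stood at 1062, 1075 and 1309 CPM in Control, 1367, 1393 and 1333 in AKI-CKD and 1699, 1223 and 1017 in AKI-CKD + EGT. The AKI-CKD mice lay just above all Control mice and within the wide range of the AKI-CKD + EGT mice. The log2 fold changes were 0.33 (SE 0.23, edgeR adjusted p = 0.589) and -0.25 (SE 0.23, edgeR adjusted p = 0.636). In all kept cells they were 0.31 (SE 0.23, edgeR adjusted p = 0.740) and -0.25 (SE 0.23, edgeR adjusted p = 0.663), and in DCT cells, where the AKI-CKD mice (1601 to 1834 CPM) again lay above all Control mice (1190 to 1507 CPM), 0.40 (SE 0.21, edgeR adjusted p = 0.557) and -0.22 (SE 0.21, edgeR adjusted p = 0.675). AKI-CKD lay above Control without overlap in 5 of the 14 populations, namely all kept cells, PT, DCT, macrophages and B cells; of all genes tested, 6.17% did so in DCT, 5.14% in macrophages and 6.12% in B cells. AKI-CKD + EGT lay above AKI-CKD without overlap in CD-IC, as 11.1% of genes did, and below it in B cells, as 5.03% of genes did. None of the 28 tests of Igfbp7 gave a call in edgeR, and 1 in each comparison came with p under 0.05 before adjustment. Against Control it was that in T/NK cells (edgeR unadjusted p = 0.0430), where 11.7% of genes had such a p. In the EGT comparison it was that in CD-IC (edgeR unadjusted p = 0.0246), where 19.3% of genes had one.

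Igfbp3 was an endothelial gene in these kidneys. Endothelial cells held 81.5% of its 3285 UMIs at 216 ± 57.8 CPM, stromal cells followed at 25.1 ± 11.4 CPM without overlap of the SD ranges, and PT cells stood at 0.752 ± 0.165 CPM (SD, n = 9 mice). In endothelial cells the levels were 212, 288 and 244 CPM in Control, 197, 123 and 183 in AKI-CKD and 279, 268 and 154 in AKI-CKD + EGT. All 3 AKI-CKD mice lay below all Control mice, as 8.37% of all genes tested in endothelial cells did, and AKI-CKD + EGT mouse 3 lay among the AKI-CKD mice. The log2 fold change was -0.54 (SE 0.23, edgeR adjusted p = 0.510, unadjusted p = 0.0372) in AKI-CKD, opposite in sign to Serpine2 and Gdf15 in PT, and 0.37 (SE 0.23, edgeR adjusted p = 0.622) in the EGT comparison. Without AKI-CKD mouse 2 the former was -0.34. In all kept cells the levels were 4.16, 5.56 and 3.61 CPM in Control, 3.48, 3.99 and 2.73 in AKI-CKD and 5.65, 7.01 and 5.01 in AKI-CKD + EGT. The log2 fold changes were -0.34 (SE 0.23, edgeR adjusted p = 0.696) and 0.58 (SE 0.23, edgeR adjusted p = 0.352, unadjusted p = 0.0260), and all AKI-CKD + EGT mice lay above all AKI-CKD mice, as 20.1% of genes did. The AKI-CKD mice had 327, 496 and 260 endothelial cells and the AKI-CKD + EGT mice 341, 544 and 431; the part of these numbers in the summed level was not tested. In PT cells the values were 0.21 (SE 0.30, edgeR adjusted p = 0.80) and 0.14 (SE 0.30, edgeR adjusted p = 0.860).

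Timp1 was rare, with 124 UMIs in 76 of the kept cells, and it lay in stromal and endothelial cells (47.6% and 39.5% of its UMIs). The mice had 8, 7 and 8 UMIs in Control, 13, 48 and 13 in AKI-CKD and 5, 9 and 13 in AKI-CKD + EGT. In AKI-CKD mouse 2, 33 of the 48 UMIs came from 2 stromal cells, of which 1 held 26. In CPM of all kept cells all AKI-CKD mice lay above all Control mice, as 6.15% of genes did. The log2 fold change was 1.90 (SE 0.65, edgeR adjusted p = 0.555, unadjusted p = 0.0148), and 0.83 without AKI-CKD mouse 2. In the EGT comparison it was -1.48 (SE 0.64, edgeR adjusted p = 0.384, unadjusted p = 0.0425), and -0.42 without that mouse. Timp1 passed the filter on low counts mainly through the AKI-CKD mice, where it was high, so its values in both comparisons are no support. With no filter edgeR called Timp1 in stromal cells in that comparison (-2.94, SE 0.60), a value that includes the 2 stromal cells named above. Endothelial cells carried 4, 3 and 0 UMIs in the Control mice, 9, 9 and 9 in the AKI-CKD mice and 4, 6 and 5 in the AKI-CKD + EGT mice, or 3.15, 1.93 and 0 CPM, 7.28, 5.25 and 8.19 CPM, and 3.58, 3.52 and 2.95 CPM. The AKI-CKD mice lay above all others there, on 27 UMIs that did not pass the filter. Timp1 in these cells was not called in either comparison by edgeR with no filter or by DESeq2. Of the genes tested in these cells with the filter, 6.51% had all AKI-CKD mice above all Control mice and 3.99% had all AKI-CKD + EGT mice below all AKI-CKD mice. In PT cells 6 UMIs were found among 147930 cells. The gene lies inside an intron of Syn1, and the strand setting of the counting is not given in the sources used here, so reads of the 2 genes may not have been told apart.

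Il6 was nearly absent. It had 76 UMIs in 56 cells, 8, 17 and 5 in the Control mice, 2, 13 and 3 in the AKI-CKD mice and 4, 17 and 7 in the AKI-CKD + EGT mice. The groups overlapped, and the log2 fold changes in all kept cells were -0.50 (SE 0.82, edgeR adjusted p = 0.894) and 0.58 (SE 0.82, edgeR adjusted p = 0.789). The highest mean level was in mixed myeloid cells (8.04 ± 9.47 CPM), next to endothelial cells (1.76 ± 2.09 CPM; SD, n = 9 mice), and these held 27.6% and 34.2% of the UMIs. In mixed myeloid cells 8 of the 21 UMIs came from 2 cells of Control mouse 2. No UMI was seen in 6 types, among them DCT, where a count of 0 allows up to 0.0835 CPM, a limit that covers counting error only.

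Cdkn2a, which encodes the cell cycle inhibitor Ink4a and, from another first exon, Arf, was the rarest of the 7 genes. The gene-level counts do not separate these products. It had 53 UMIs in 42 cells, 5, 5 and 1 in the Control mice, 11, 10 and 2 in the AKI-CKD mice and 1, 9 and 9 in the AKI-CKD + EGT mice, and the groups overlapped. It passed the filter in no population, so that edgeR with the filter tested none of its values. Neither edgeR with no filter nor DESeq2 called any of them. PT cells and endothelial cells held 12 UMIs each, of which 5 in the latter came from 2 cells of AKI-CKD + EGT mouse 2. An unnamed cluster of 322 cells was led by neuronal genes (Cntnap2, Nkain2, Cdh13) and met no marker list. Without Harmony a cluster led by the same genes met that of injured tubule. The AKI-CKD mice had 22, 34 and 23 cells in the unnamed cluster. Their 8, 4 and 1 Cdkn2a UMIs there came from 4, 3 and 1 of these cells. 

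Cdkn1a, the kinase inhibitor that p53 induces, was not 1 of the 7 genes, and was used to split the PT cells. A Cdkn1a UMI was found in 9168 PT cells, that is in 2.38%, 2.19% and 1.00% of the PT cells of the Control mice, 7.66%, 14.1% and 13.0% of those of the AKI-CKD mice and 7.65%, 3.29% and 6.86% of those of the AKI-CKD + EGT mice. The AKI-CKD mice lay above all other mice, AKI-CKD mouse 1 by a narrow margin. Cdkn1a was at its highest in endothelial cells (614 ± 306 CPM, in 51.1% of cells), and a Cdkn1a UMI was found in 5.29% of B cells, against 6.20% of all PT cells. How many PT cells carried that UMI from free RNA cannot be told apart. Within each mouse, Gdf15 and Serpine2 stood higher in the cells with a Cdkn1a UMI. Gdf15 stood at 231 ± 102 CPM with and 89.8 ± 43.3 CPM without it, and Serpine2 at 6.98 ± 3.79 CPM and 1.44 ± 1.03 CPM (SD, n = 9 mice). The difference in log2(CPM + 1) was 1.38 ± 0.24 for Gdf15 and 1.62 ± 0.64 for Serpine2, each higher in 9 of 9 mice (exact two-sided sign-flip permutation test, p = 0.00391, the smallest that 9 mice allow). Of the 16884 genes with at least 100 UMIs in PT cells, 3.75% were likewise higher in 9 of 9 mice and 0.699% lower in 9 of 9, and the median difference over all of them was 0.04. Adjusted over all these genes the p of both was 0.0878 (exact permutation test). All genes with that smallest p share this value and none had a lower one, so no gene was called. The shared value depends on how many genes reach the smallest p, and it does not set either gene apart from them. Igfbp7 was lower with Cdkn1a in 9 of 9 mice, by a small step, at 1167 ± 185 CPM against 1287 ± 221 CPM (difference -0.14 ± 0.08, exact permutation p = 0.00391, adjusted over all genes 0.0878). Igfbp3 was higher in 8 of 9 mice with a difference of 0.23 ± 0.41 (exact permutation p = 0.145), a direction that was not kept at equal depth (-0.78 to 0.60, higher in 1 to 5 of 9 mice, over 20 draws of 1000 UMIs per cell); this endothelial gene stood at 1.1 CPM with and 0.721 CPM without a Cdkn1a UMI.

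Inside the groups the Serpine2 values with a Cdkn1a UMI rested on few counts, 4, 4 and 6 UMIs in the Control mice, 67, 109 and 158 in the AKI-CKD mice and 49, 32 and 19 in the AKI-CKD + EGT mice. The mean difference for Gdf15 was 1.41, 1.22 and 1.51 in Control, AKI-CKD and AKI-CKD + EGT, and for Serpine2 it was 1.27, 1.59 and 2.00. In cells without a Cdkn1a UMI, Serpine2 stood at 0.438 to 0.484 CPM in Control, 1.77 to 3.49 CPM in AKI-CKD and 0.847 to 1.84 CPM in AKI-CKD + EGT, with all AKI-CKD mice above all Control mice, as 6.84% of genes were in those cells. Gdf15 in those cells stood at 27.3 to 131 CPM, 77.0 to 169 CPM and 68.2 to 97.5 CPM. The cells with a Cdkn1a UMI were deeper, with a median of 3877 to 4944 UMIs per mouse against 2530.5 to 3217. When each PT cell was thinned to 1000 UMIs, a setting chosen after these depths were seen, the values depended on the draw of UMIs. Over 20 draws Gdf15 gave 1.65 to 1.93, higher in 9 of 9 mice in each, and Serpine2 gave 1.16 to 2.54, higher in 6 to 9 of 9 mice. Igfbp7 gave -0.13 to -0.03, higher in 0 to 5 of 9 mice, so that its lower level in 9 of 9 mice was not kept. The 2 draws made first gave 1.56 and 1.72 for Gdf15 and 1.87 and 2.83 for Serpine2, of which 1.56 and 2.83 lie outside those ranges. In the latter draw 0.58% of all genes were higher in 9 of 9 mice, 4.68% were lower in 9 of 9, 3.51% were higher with an exact permutation p under 0.05 and the median difference of all genes was -0.17. Without the cells of the 6% highest doublet scores the values were 1.38 and 1.65.

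**Figure D5:**
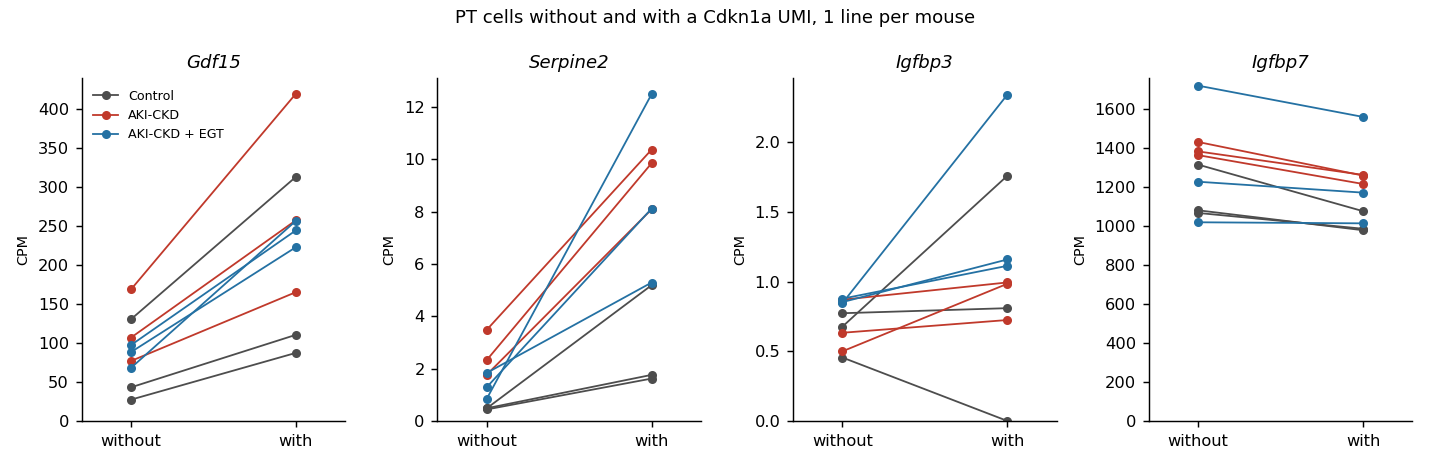
CPM (y axis, starting at 0) of Gdf15, Serpine2, Igfbp3 and Igfbp7 in PT cells without and with a Cdkn1a UMI, with 1 line per mouse coloured by group. The lines of Gdf15 and Serpine2 go up in 9 of 9 mice and those of Igfbp7 go down in 9 of 9.

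The wider response was followed through 7 lists of related genes, tested in the same populations. Among growth-arrest genes, Cdkn1a rose in AKI-CKD in PT (log2 fold change 3.55, SE 0.47, edgeR adjusted p = 0.0313), where the call was kept in 10 of 19 alternatives, and in CD-PC (2.66, SE 0.34, edgeR adjusted p = 0.00443; 0.0651% of genes were called there) and fell by 1.35 in CD-IC of the EGT comparison (edgeR adjusted p = 0.0414). The PT call was lost with the replicate number as a block (3.61, edgeR adjusted p = 0.137), with only the 6 mice compared (3.52, edgeR adjusted p = 0.0573), with no scaling factor (3.45, edgeR adjusted p = 0.0666) and in 6 of the 9 fits without 1 mouse, namely any Control mouse, AKI-CKD mouse 2 or 3 or AKI-CKD + EGT mouse 3 (edgeR adjusted p up to 0.155). The CD-PC call was kept in 19 of 19. Glb1, the lysosomal beta-galactosidase behind the classical stain for senescence, rose in thin limb cells in AKI-CKD (1.06, SE 0.29, edgeR adjusted p = 0.0419), where 5.97% of all genes were called, and was called in 10 of 18 alternatives (edgeR adjusted p up to 0.205). In T/NK cells it stood lower in AKI-CKD, at -0.56 (SE 0.29, edgeR adjusted p = 0.480). In all kept cells the growth-arrest list had 10 of 12 tested genes above 0 in AKI-CKD with a median of 0.04, beside 0.00 over all genes, and no call by edgeR with 2 unadjusted p under 0.05. Of the 19 cytokines and chemokines, all tested in all kept cells, 11 were above 0 in AKI-CKD and none was called in any population by edgeR with the filter (2 unadjusted p under 0.05 in all kept cells). DESeq2 called 1 of 147 and 2 of 108 values over the populations in the 2 comparisons and edgeR with no filter 15 and 16 of 229. Over all genes, DESeq2 called 0.447% and 1.02% of gene tests and edgeR with no filter 0.634% and 1.01%. In all kept cells the list was led by 2 chemokines. Its largest rise and fall in AKI-CKD there were those of Cxcl10, a chemokine for lymphocytes, with 1.07 (SE 1.20), and Ccl8, a chemokine for monocytes, with -1.13 (SE 0.77), neither called.

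The axis of insulin-like growth factors had 8 of 11 genes above 0 in AKI-CKD in all kept cells, with a median of 0.21. Igfbp6 stood highest at 1.06 (SE 0.40) and Igfbp3 lowest. In the EGT comparison the largest rise was that of Igf1, the growth factor itself, at 0.84 (SE 0.28, edgeR adjusted p = 0.318) and the largest fall that of Igfbp1, a stress-responsive carrier, at -0.82 (SE 0.36, edgeR adjusted p = 0.387), neither called. Igfbp4 rose in CD-IC in that comparison (0.92, SE 0.21, edgeR adjusted p = 0.0306), as did Timp3, a matrix-bound metalloproteinase inhibitor (1.01, SE 0.25, edgeR adjusted p = 0.0413). CD-IC had 2.65% of 7897 genes called in that comparison, among them Malat1 at 2.12 (SE 0.45) and Kcnq1ot1 at 4.36 (SE 0.63), while Hspa1a and Dnajb1 fell by 1.36 and 1.19; the AKI-CKD + EGT mice had 79, 211 and 470 CD-IC, the last in mouse 3. The part of these in the calls of Igfbp4, Timp3 and Cdkn1a was not tested, and the calls were kept in 12, 9 and 13 of 19 alternatives. Proteases and their inhibitors, apart from Serpine2, gave no call in AKI-CKD by edgeR with the filter, while DESeq2 called 1 other value, Timp2 in CD-PC. Among growth factors Gdf15 itself had the largest rise in all kept cells, and edgeR with the filter called no gene in any population. DESeq2 called 2 and 1 values of that list, all of Spp1, which encodes osteopontin, and edgeR with no filter called 10 and 5, of Gdf15, Spp1, Ccn1, Ccn2 and Hbegf. Over all genes, DESeq2 called 0.447% and 1.02% of gene tests and edgeR with no filter 0.634% and 1.01%, which are also the shares beside the other lists here. Of the receptors, Cd63, a membrane partner of Timp1, fell by 0.84 in thin limb cells of the EGT comparison (SE 0.21, edgeR adjusted p = 0.0364), where 5.19% of all genes were called and Malat1 rose by 2.33, and was called in 13 of 18 alternatives (edgeR adjusted p up to 0.177). The stress-response list, which includes Atf4 itself, Chac1 (-1.30, SE 0.57 in AKI-CKD) and Asns (0.32, SE 0.46), had no call by edgeR with the filter. DESeq2 called 0 and 1 of its values and edgeR with no filter 1 and 5. The median of that list was 0.10 in AKI-CKD and -0.25 in the EGT comparison.

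Across the mean levels of the 14 types, the genes most like each member were listed by Pearson's r on log2(CPM + 1), as a description over types that share libraries and may share free RNA. Serpine2 was closest to Adamts5 (0.97), Id1 (0.96) and Plac9 (0.94), which all peaked in stromal cells, and Timp1 to 4631405J19Rik (0.99), Plac9 (0.97) and Adamtsl1 (0.97). Igfbp3 was closest to the endothelial genes Tie1 (0.99), Clec14a (0.99) and Adgrl4 (0.99). Igfbp7 was closest to Hoxc5 (0.93), Col4a5 (0.93) and Smo (0.92), which peaked in podocytes, and Gdf15 to Bex1 (0.94), Egfr (0.88) and Nt5c2 (0.87), which peaked in thin limb cells.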

How the data were processed

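Filtered gene-by-cell UMI count matrices of 9 kidneys, 1 per mouse, were deposited; the counts were made by the authors from DNBelab C4 droplet libraries on build GRCm39, and the strand setting is not given in the sources used here. Cells with at least 1000 UMIs, 500 genes and at most 15% mitochondrial UMIs were kept. They were clustered (scanpy 1.11.5; 2000 variable genes, 30 components, Harmony by library, 20 neighbours, Leiden resolution 1.1) and named from markers with a 1.5-fold rule set after the clusters were seen. UMIs were summed per mouse and population and tested with edgeR 4.0.16 (quasi-likelihood, TMM, filterByExpr, all 9 mice in 1 fit, Benjamini-Hochberg over all genes, threshold 0.05), after a test on simulated data; DESeq2 1.42.0 was an alternative. CPM in the text are not TMM-scaled; whether mice overlap was read from these CPM. PT cells were split by Cdkn1a and compared within mice by an exact permutation test on log2(CPM + 1), adjusted over all genes with at least 100 UMIs in these cells, a scope chosen after the members' values were seen. Genes named besides the 7 were those called in a list, the largest rise or fall of a list in all kept cells, or the 3 genes most like a member. The members and lists were chosen with earlier results of these data known. The replicate numbers are not said to pair the mice. The correlation of deviations between mice of the same number ran from -0.453 to 0.379, which cannot settle this with 3 mice per group. Thinning to 1000 UMIs and library totals with no scaling factor were chosen after seeing the data.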

Additional observations from a re-analysis of the deposited data

Results flagged for a closer look

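Igfbp7 in AKI-CKD + EGT against AKI-CKD separated the mice in opposite directions in 2 types. In CD-IC all AKI-CKD + EGT mice (833, 754 and 762 CPM) lay above all AKI-CKD mice (610, 492 and 620 CPM), with a log2 fold change of 0.41 (SE 0.17, edgeR adjusted p = 0.187), as 11.1% of genes there did. In B cells all AKI-CKD + EGT mice (763, 801 and 738 CPM) lay below all AKI-CKD mice (820, 854 and 954 CPM), with a log2 fold change of -0.23 (SE 0.19, edgeR adjusted p = 0.789), as 5.03% of genes there did. The 2 types were picked because their mice separated in opposite directions, and the difference between the types was not tested. Igfbp7 of B cells and free RNA cannot be told apart by the ratio to Slc34a1 given above. The Control mice stood at 712, 600 and 765 CPM in CD-IC and at 786, 641 and 797 CPM in B cells.

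Cdkn2a had its highest level in cells that met no marker list. In the unnamed cluster of 322 cells led by neuronal genes, the pooled AKI-CKD cells stood at 28.4 CPM. The AKI-CKD mice had 48.1, 20.2 and 10.7 CPM on 8, 4 and 1 UMIs, the Control mice 3.18, 8.28 and 0 CPM on 1, 1 and 0 UMIs, and the AKI-CKD + EGT mice 0, 0 and 9.76 CPM on 0, 0 and 3 UMIs. The UMIs of the AKI-CKD mice came from 4, 3 and 1 cells, with 3 of the 8 in 1 cell of AKI-CKD mouse 1. These counts were not tested.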

How the results depend on the processing

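Serpine2 in PT against Control kept its direction in all 19 alternatives and its call in 15; the call was lost with a replicate block (2.90, edgeR adjusted p = 0.0683), with only the 6 mice compared (2.91, edgeR adjusted p = 0.0573) and without Control mouse 2 or 3, and leaving out each mouse gave 2.66 to 3.17. Between AKI-CKD + EGT and AKI-CKD it was called with DESeq2 (-1.25, adjusted p = 0.00790) and with no filter on low counts (-1.27, edgeR adjusted p = 0.0296). The number of gene-by-population values called was 2 with DESeq2, 6 with no filter, 0 with the replicate block, 0 with only the 6 mice and 0 to 3 with a mouse left out in AKI-CKD against Control, and 1 with DESeq2, 6 with no filter and 0 to 1 with a mouse left out between AKI-CKD + EGT and AKI-CKD. The calls with a mouse left out in the latter were all of Serpine2 in thin limb cells, which did not pass the filter with all mice, and these are no support. The same holds for the thin limb calls of Serpine2 with a mouse left out against Control. Over all populations DESeq2 called 0.447% and 1.02% of gene tests, the fit with no filter 0.634% and 1.01%, and the fit as reported 0.256% and 0.396%. The replicate block changed no other call of the 7 genes. The sources used here do not say whether the replicate numbers mark pairs.

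Some values changed sign. Leaving out each mouse gave -1.85 to 0.075 and -0.11 to 1.94 for Il6 in all kept cells, -0.065 to 0.23 for Serpine2 in endothelial cells against Control, -0.32 to 0.37 and -0.44 to 0.39 for Serpine2 in stromal cells, and -1.07 to 0.15 for Gdf15 in cycling cells of AKI-CKD + EGT. Without the 6% highest doublet scores Serpine2 in stromal cells was -0.015 and 0.067, and with no scaling factor 0.0005 in the latter comparison. The Igfbp7 difference by Cdkn1a was -0.035 in the second draw of UMIs (exact permutation p = 0.383), and that of Igfbp3 was -0.065 in the first, and 0.15 to 0.32 with a mouse left out (0.32, with an unadjusted exact permutation p of 0.00781, without Control mouse 3). With no scaling factor the median of all genes moved by 0.23 in all kept cells and 0.21 in PT when EGT-treated and untreated AKI-CKD mice were compared, so changes there are relative to that shift. Of 36 values per comparison under 10 other alternatives, 8 and 16 of 350 had the other direction, and with each mouse left out 19 and 29 of 324, among them Gdf15 in stromal cells of AKI-CKD + EGT (-0.80, and 0.66 without AKI-CKD mouse 2). Without Harmony no cluster was named thin limb (845 cells led by Cryab, Slc14a2 and Apela stayed unnamed, closest to the urothelium list with 4 markers raised), Gdf15 was highest in cycling cells (355 CPM) among the other 13 types, and 268 cells led by Cntnap2, Nkain2 and Cdh13 were named injured tubule from 3 markers raised. The other causes were not tested. Timp1, Il6 and Cdkn2a rested on 124, 76 and 53 UMIs, and the size of difference that such counts can show was not tested.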
